A study of Mus musculus with 4 samples.

Results

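The peaks described here are RUNX1-bound regions of the fetal mouse ovary that lie far from the transcription start sites (TSSs) of curated RefSeq transcripts, though not always from those of other annotations. They were chosen by position alone: a peak on chromosomes 1-19 or X was kept if its midpoint was over 100 kb from the nearest such TSS and in no curated exon, whether in an intron or between genes. The rule kept 299 of the 10490 peaks on these chromosomes (2.85%, 95% exact binomial interval 2.54 to 3.19). The peak list comes from a ChIP-seq experiment on ovaries of CD1 mouse embryos at E14.5, cut from the mesonephros before pooling, a stage at which pre-granulosa cells are the supporting cells of the gonad. It had 2 RUNX1 ChIP samples and 2 input samples, each from a pool of XX gonads, and the RUNX1 samples were immunoprecipitated with an antibody to RUNX1. The authors merged the replicates before calling peaks, so each peak has 1 fold enrichment and 1 p-value from the caller and no error between samples, and the list gives no read count for a peak. All tests below compare peaks within this list, not animals, and intervals cover counting error only.

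RUNX1 is a Runt-domain transcription factor that binds DNA with its partner CBFB at a short core, TGTGGT or TGCGGT, and acts as an activator or a repressor depending on the proteins around it. Sequences far from promoters include enhancers, which can act on a gene across long distances and past closer genes, so the nearest gene names a place and not a target. RUNX1 is best known from blood cell formation, and in the fetal ovary it is made by the pre-granulosa cells.

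A set of 6 peaks shows sequences from the high end of the folds, well above the median of 6.66 over all 299 peaks. The first 4 have the highest folds among peaks with a RUNX core, and the last 2 have the highest folds among peaks without one. All are 300 bp on the plus strand of mm10, 5′ to 3′, with the RUNX core in capitals, which reads ACCACA or ACCGCA where it lies on the minus strand. The Dthd1 peak (chr5:63104202-63104501, fold 137) was 292695 bp downstream of the Dthd1 TSS, outside any gene. The Saxo2 peak (chr7:82534067-82534366, fold 71.3) lay in intron 15 of Adamtsl3. The 5930403N24Rik peak (chr10:37422618-37422917, fold 61.1) was 283841 bp upstream of Marcks, its nearest protein-coding gene. The Sh2d4a peak (chr8:68133560-68133859, fold 48.1) was 142819 bp upstream of the Sh2d4a TSS. The E030025P04Rik peak (chr11:109039138-109039437, fold 32.2) was 118938 bp downstream of the TSS of Axin2, a WNT pathway inhibitor and target. The Tmem121 peak (chr12:113288630-113288929, fold 19.2) lay in an exon of Ighg2c in the GENCODE annotation, an immunoglobulin heavy chain gene. With predicted RefSeq and GENCODE transcripts counted, the nearest TSS was 290528 bp from the Dthd1 peak and 77561 bp from the Saxo2 peak. It was 13598 bp from the 5930403N24Rik peak and 12182 bp from the Sh2d4a peak. For the E030025P04Rik and Tmem121 peaks it was 27803 and 153 bp away.
Dthd1 peak: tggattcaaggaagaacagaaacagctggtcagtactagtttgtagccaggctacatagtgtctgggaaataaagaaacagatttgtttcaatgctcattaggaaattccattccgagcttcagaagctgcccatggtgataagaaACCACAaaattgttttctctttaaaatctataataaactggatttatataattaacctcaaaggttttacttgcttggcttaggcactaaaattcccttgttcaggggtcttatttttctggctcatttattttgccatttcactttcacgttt
Saxo2 peak: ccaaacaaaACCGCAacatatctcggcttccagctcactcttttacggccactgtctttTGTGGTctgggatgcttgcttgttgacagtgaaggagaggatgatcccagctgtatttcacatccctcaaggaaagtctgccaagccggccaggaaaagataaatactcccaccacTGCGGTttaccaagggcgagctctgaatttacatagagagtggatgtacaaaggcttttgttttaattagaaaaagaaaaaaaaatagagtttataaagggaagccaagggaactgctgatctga
5930403N24Rik peak: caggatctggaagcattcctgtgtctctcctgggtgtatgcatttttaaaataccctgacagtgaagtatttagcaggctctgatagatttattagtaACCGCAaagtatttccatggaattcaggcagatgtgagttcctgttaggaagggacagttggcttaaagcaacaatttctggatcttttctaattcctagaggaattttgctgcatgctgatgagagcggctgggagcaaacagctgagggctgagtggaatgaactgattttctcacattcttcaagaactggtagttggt
Sh2d4a peak: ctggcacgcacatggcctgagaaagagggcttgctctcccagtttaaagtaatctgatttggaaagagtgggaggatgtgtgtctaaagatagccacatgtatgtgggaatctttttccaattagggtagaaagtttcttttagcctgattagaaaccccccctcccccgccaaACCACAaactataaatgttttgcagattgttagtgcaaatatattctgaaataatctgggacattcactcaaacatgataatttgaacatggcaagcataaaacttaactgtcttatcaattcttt
E030025P04Rik peak: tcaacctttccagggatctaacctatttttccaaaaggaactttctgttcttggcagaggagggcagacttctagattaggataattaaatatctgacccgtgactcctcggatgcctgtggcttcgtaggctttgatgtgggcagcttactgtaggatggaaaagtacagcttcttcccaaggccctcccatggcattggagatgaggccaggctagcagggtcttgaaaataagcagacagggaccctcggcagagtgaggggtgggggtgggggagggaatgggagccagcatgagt
Tmem121 peak: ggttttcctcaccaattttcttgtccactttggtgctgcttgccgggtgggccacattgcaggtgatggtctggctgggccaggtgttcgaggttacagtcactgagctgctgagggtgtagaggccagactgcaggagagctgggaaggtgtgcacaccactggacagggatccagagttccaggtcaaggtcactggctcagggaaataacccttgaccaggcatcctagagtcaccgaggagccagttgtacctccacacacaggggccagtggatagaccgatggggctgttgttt

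The Saxo2 peak held 3 cores, 2 of them TGCGGT, whereas the Dthd1, 5930403N24Rik and Sh2d4a peaks each held 1. The GC content of the 4 peaks with cores was 36.0% (Dthd1), 44.0% (Saxo2), 42.7% (5930403N24Rik) and 39.3% (Sh2d4a), and that of the E030025P04Rik peak without a core was 51.7%.

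The other peaks among the 12 highest folds lay mostly outside genes. The Gm30223 peak (fold 46.3) held 5 cores, had a GC content of 34.7% and was 310495 bp from its nearest curated TSS. The peaks nearest to Tank, which encodes a TRAF-binding adaptor, Triqk and the noncoding gene 2310008N11Rik had the same fold of 33.3, at 252836, 136688 and 136211 bp, with 2, 2 and 1 cores. Those nearest to 1700028M03Rik (fold 26.4) and A230103O09Rik (fold 25.9) lay at 127632 and 173929 bp and held 1 and 2 cores. The twelfth, nearest to the retinoid enzyme gene Dhrs3 (fold 22.8), lay in an intron of Vps13d. With predicted RefSeq and GENCODE transcripts counted, the nearest TSS was 12173 bp from the Gm30223 peak and 9571 bp from the 2310008N11Rik peak. It was 32829 bp from the Tank peak and 32615 bp from the Triqk peak. For the 1700028M03Rik, A230103O09Rik and Dhrs3 peaks it was 43084, 74897 and 16168 bp away. Of these 12 peaks the E030025P04Rik peak was the only one without a core.

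Of the 299 peaks, 108 (36.1%, interval 30.7 to 41.9) were in an intron of a curated gene and 191 were outside genes. The distance to the nearest TSS had a median of 155189 bp and reached 1052287 bp. There were 207 peaks between 100 and 200 kb, 80 between 200 and 500 kb and 12 beyond 500 kb. At the limit itself, the nearest peaks inside were 100166 bp from Sfrp1 (fold 4.17) and 100430 bp from Rxfp2 (fold 4.86), and the nearest outside were 99410 bp from Mirlet7i (fold 39.6) and 99083 bp from Gm12295 (fold 11.8). The peaks lay in long stretches without a curated TSS, with a median of 466 kb between the curated TSSs on either side and a range of 207 to 3764 kb. Chromosome 5 held 30 of them, chromosome 4 26 and chromosome 8 23, while chromosome 19 held 2 and the X chromosome 4. Of the 108 intronic peaks, 56 were in the gene whose TSS was nearest. The share in introns was not distinguishable from that of the 1278 non-exonic peaks 10 to 100 kb from a TSS (39.3%, odds ratio 0.874 with a 95% interval of 0.673 to 1.14, p = 0.323 by a two-sided Fisher's exact test, as in all comparisons of 2 sets of peaks below).

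Sequence over 100 kb from a TSS was 35.2% of the assembled bases of these chromosomes (901 Mb, assembly gaps left out) and held 0.332 non-exonic peaks per Mb. Peak density was 1.08 per Mb at 10 to 100 kb, 0.575 at 100 to 200 kb, 0.225 at 200 to 500 kb and 0.0646 beyond 500 kb. It therefore fell at each step away from the TSSs. These densities are descriptions of this list and were not tested.

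**Figure D1:**
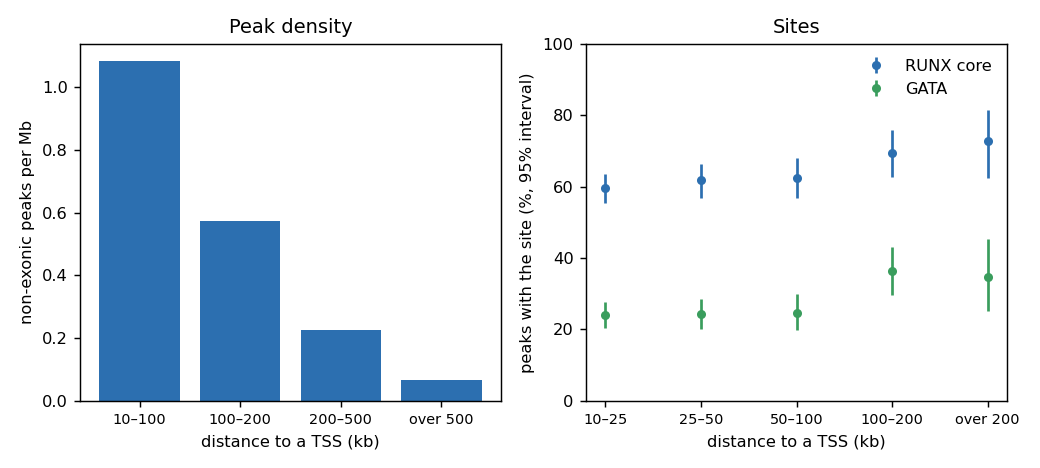
Left, non-exonic peaks per Mb of sequence in 4 classes of distance to the nearest curated TSS. Right, share of non-exonic peaks with a RUNX core or a GATA site in 5 distance classes, points with 95% exact binomial intervals. Density fell from 1.08 to 0.0646 per Mb, while the share with a core was 59.6% at 10 to 25 kb and 72.8% beyond 200 kb. The shares were not matched for GC content.

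The fold had a median of 6.66 and quartiles of 5 and 9.79, with a lowest value of 4.01 and a highest of 137. In the peaks 10 to 100 kb from a TSS the median was 6.17 with quartiles of 4.86 and 8.79. A fold at or above 6.29, the median of all non-exonic peaks over 10 kb from a TSS, was found in 56.5% of the far peaks and 48.5% of the closer ones (odds ratio 1.38, interval 1.07 to 1.78, exact p = 0.0146). By the caller's p-value the comparison was not called, with 50.8% of far peaks and 50.2% of closer ones at or below the median p-value (odds ratio 1.02, interval 0.796 to 1.32, exact p = 0.898). Keeping only the highest-fold peak of each run of peaks within 50 kb also ended the call for the fold (odds ratio 1.28, exact p = 0.0696). That filter selects on the fold itself. It left shares of 58.1% in the far peaks and 52.0% in the closer ones, so it cannot show what clustering alone does. Folds came in steps: 293 of the 299 peaks had exactly the fold and p-value of some other peak in the list, and 18 shared the fold of 5.55, so the folds rank the peaks only coarsely.

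**Figure D2:**
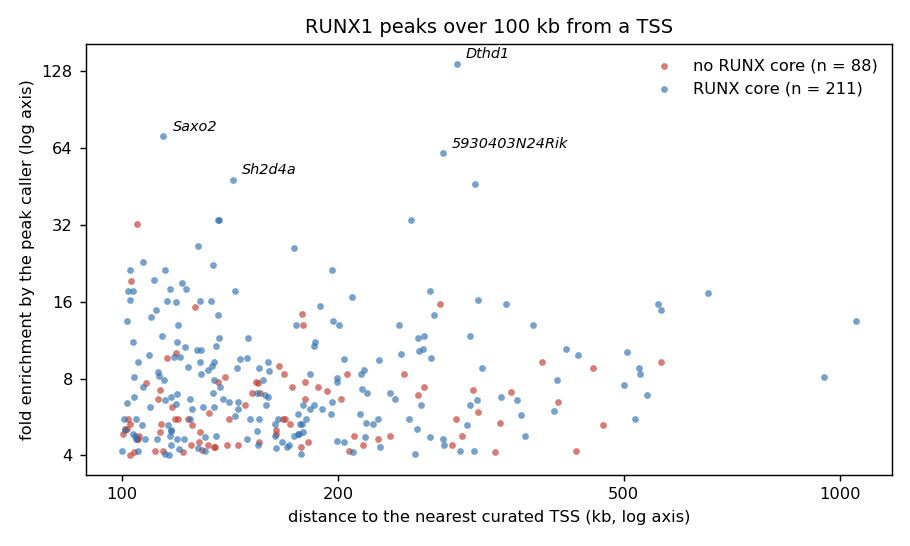
Fold enrichment given by the peak caller against the distance to the nearest curated TSS for each of the 299 peaks, both on log axes. Blue points hold a RUNX core (211 peaks) and red points hold none (88 peaks). The 4 named peaks have folds of 48.1 to 137 and lie 114312 to 292695 bp from a TSS. Beyond 500 kb the highest fold is 17.4, at 655014 bp.

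A RUNX core, searched as TGTGGT or TGCGGT on both strands, was present in 211 of the 299 peaks (70.6%, interval 65.05 to 75.7). In a window of the same length 1 kb to the left of each peak it was present in 24.1% (interval 19.3 to 29.3). The median GC content was 49.7% in the peaks and 44.3% in these flanks, and no comparison with flanks was matched for it. There were 156 peaks with a core where the flank had none, and 17 flanks with a core where the peak had none (exact McNemar test, two-sided, p = 2.6e-29). Among all 10490 peaks, 39.9% held a core, 19.5% TGTGGT and 23.7% TGCGGT. The far peaks held TGTGGT in 53.8% and TGCGGT in 24.1%, against 21.1% and 4.01% of the left flanks. Both letters at the third position were thus more frequent than in the flanks (exact McNemar tests, two-sided, p = 4.8e-16 and 2.1e-13). The longer form TGTGGTT was in 35.8% of the peaks and 8.36% of the flanks, and in 8.57% of all peaks. The base after TGTGGT was T at 56.2% of the 226 such cores in the far peaks and at 37.8% of the 74 in their flanks.

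The cores were concentrated at the peak midpoint. Of the 211 peaks with a core, 138 (65.4%) had one within the central 100 bp. The number of core starts per 100 peaks per bp reached 0.595 beside the midpoint and averaged 0.100 at over 500 bp from it. In peaks within 1 kb of a TSS the highest value was 0.182. The number of cores per peak varied, as 88 peaks had none, 142 had 1, 56 had 2 and 13 had 3 or more.

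**Figure D3:**
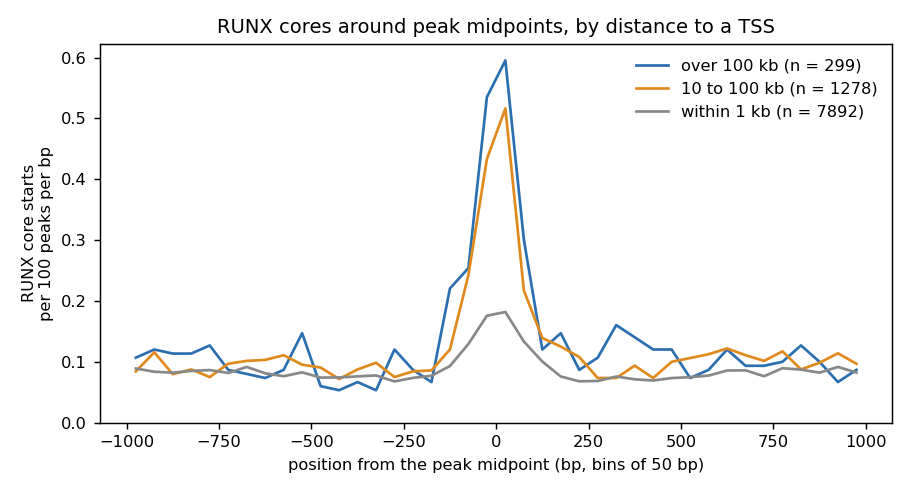
RUNX core starts per 100 peaks per bp, in bins of 50 bp, against the position from the peak midpoint, for peaks over 100 kb, 10 to 100 kb and within 1 kb of a TSS. Only the group within 1 kb includes exonic peaks. The curve of the far peaks reaches 0.595 beside the midpoint, that of the 10 to 100 kb peaks 0.516 and that of the peaks within 1 kb 0.182.

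The far peaks held a core more often than peaks 10 to 100 kb from a TSS, 70.6% against 61.0% (interval 58.2 to 63.6), with an odds ratio of 1.54 (interval 1.17 to 2.02, exact p = 0.0022). TGTGGT was in 53.8% against 43.3% (odds ratio 1.53, interval 1.19 to 1.97, exact p = 0.000996). TGCGGT was in 24.1% and 23.2% (odds ratio 1.05, interval 0.780 to 1.41, exact p = 0.762), and the difference between the forms was not tested. Base composition moved with this result. The median GC content was 49.7% in the far peaks and 54.3% in those at 10 to 100 kb, and within 5 bins of GC content the odds ratio was 1.12 (Mantel-Haenszel odds ratio, exact stratified test, two-sided, p = 0.498). Peaks within 1 kb of a TSS, exonic ones included, held a core in 34.1% (interval 33.1 to 35.2) and had a median GC content of 68.0%.

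Among the far peaks themselves, the core went with the fold. It was present in 77.9% of the 154 peaks at or above their median fold and in 62.8% of the 145 below it (odds ratio 2.09, interval 1.26 to 3.48, exact p = 0.00512). With TGTGGT alone the shares were 59.1% and 48.3%, and the call was lost (odds ratio 1.55, exact p = 0.0644). Peaks with a core had a median fold of 7.29 and a median GC content of 47.7%, and those without had 5.55 and 56.8%. Intronic and intergenic peaks held a core in 71.3% and 70.2% (odds ratio 1.06, interval 0.629 to 1.78, exact p = 0.895).

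Other sites were counted the same way, on both strands, and adjusted over 9 sites by the Benjamini-Hochberg method. Searched were CAAGGTCA or CAAGGCCA, bound by the orphan nuclear receptors NR5A1 and NR5A2 that drive gonadal steroidogenic and supporting cell genes, the E-box CAGCTG of basic helix-loop-helix factors, AGATAA or TGATAA of GATA factors, TATTTAC or TGTTTAC of forkhead factors such as FOXL2, AGGAATG or GGGAATG of TEAD factors, CCAAT of NFY, CCGGAAGT of ETS factors, TGACTCA or TGAGTCA of AP-1, and the CTCF site. The NR5A site was in 14.05% of the far peaks and 5.35% of their left flanks (exact McNemar test, two-sided, adjusted p = 0.00241). The E-box was in 26.4% and 12.7% (exact test, adjusted p = 0.000182). NFY was less frequent in the peaks, 25.1% against 34.8% (exact test, adjusted p = 0.0338), a call that was lost against flanks 2 kb away and among peaks with a fold of at least 8. Forkhead sites were in 8.03% of peaks and 8.03% of flanks, with 22 peaks and 22 flanks holding one where the other did not. GATA, at 35.8% and 27.8%, did not pass (exact test, adjusted p = 0.0865), nor did the TEAD, AP-1, CTCF and ETS sites. As for the RUNX core, the flanks were not matched to the peaks in GC content, and its part in these values was not tested. Over all 10490 peaks these sites were in 4.42% (NR5A), 18.7% (E-box), 23.6% (NFY), 3.24% (forkhead), 8.33% (GATA), 7.06% (TEAD), 2.52% (AP-1), 1.35% (CTCF) and 4.66% (ETS).

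Against peaks 10 to 100 kb from a TSS, GATA alone passed among the 9 sites: 35.8% of the far peaks and 24.2% of the closer ones held it (odds ratio 1.75, interval 1.34 to 2.29, exact test, adjusted p = 0.000696). As with the RUNX core, the value moved with base composition, and within 5 bins of GC content the odds ratio was 1.24 (exact stratified test, two-sided, p = 0.172). The NR5A site was in 14.05% of the far peaks and 11.66% of the closer ones (odds ratio 1.238). The E-box was in 26.4% and 27.15% (odds ratio 0.963). A core and a GATA site were found together in 88 far peaks, a core and an NR5A site in 33 and a core and a forkhead site in 20. None of the 10 kinds of site was found in 21 peaks.

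**Figure D4:**
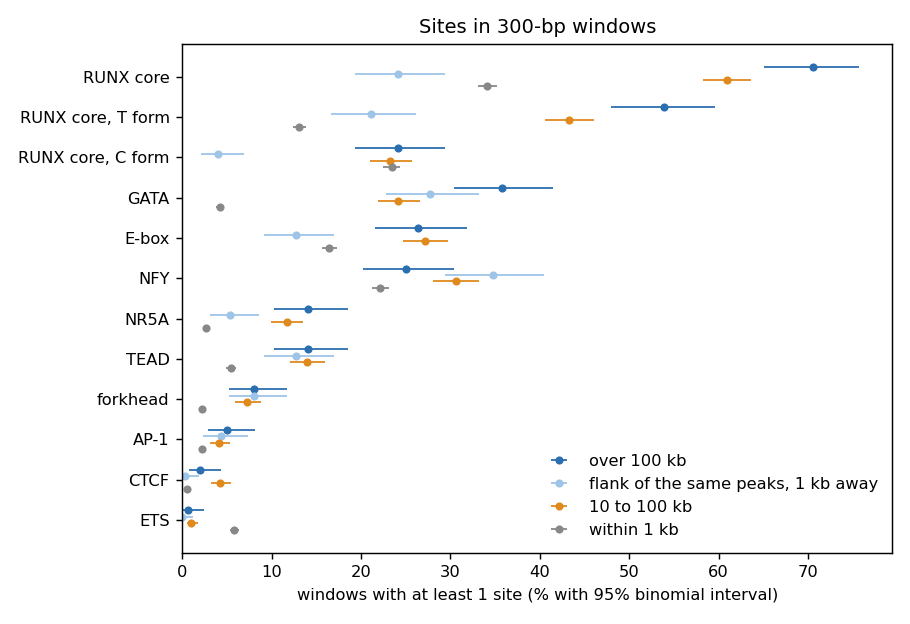
Share of 300-bp windows with at least 1 match to each site, with 95% exact binomial intervals, for peaks over 100 kb from a TSS, the windows 1 kb to their left, peaks 10 to 100 kb and peaks within 1 kb of a TSS. Only the group within 1 kb includes exonic peaks. The RUNX core separates the far peaks (70.6%) from their flanks (24.1%), and NR5A (14.05% against 5.35%) and the E-box (26.4% against 12.7%) do so at lower shares.

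The annotation decides part of what is far. With predicted RefSeq transcripts counted, 93 of the 299 peaks stayed over 100 kb from a TSS, and with GENCODE M21 transcripts 45 did. Within 1 kb of a predicted or GENCODE TSS there were 45 peaks (15.1%). These 45 had a median GC content of 61.7%, and 64.4% of them had a GC content of at least 50% with an observed to expected CpG ratio of at least 0.6, the composition of CpG-island promoters. The other 254 had a median of 48.8% and 10.2% of that composition (exact p = 2.7e-14). A RUNX core was in 44.4% of the 45 and 75.2% of the 254 (odds ratio 0.264, interval 0.137 to 0.507, exact p = 7.0e-05). This division was chosen after values were seen. Without such peaks in either group, the core share was 75.2% over 100 kb and 64.2% at 10 to 100 kb (odds ratio 1.69, exact p = 0.000811). This comparison was not matched for GC content. With all peaks of both groups, the odds ratio within 5 GC bins was 1.12.

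**Figure D5:**
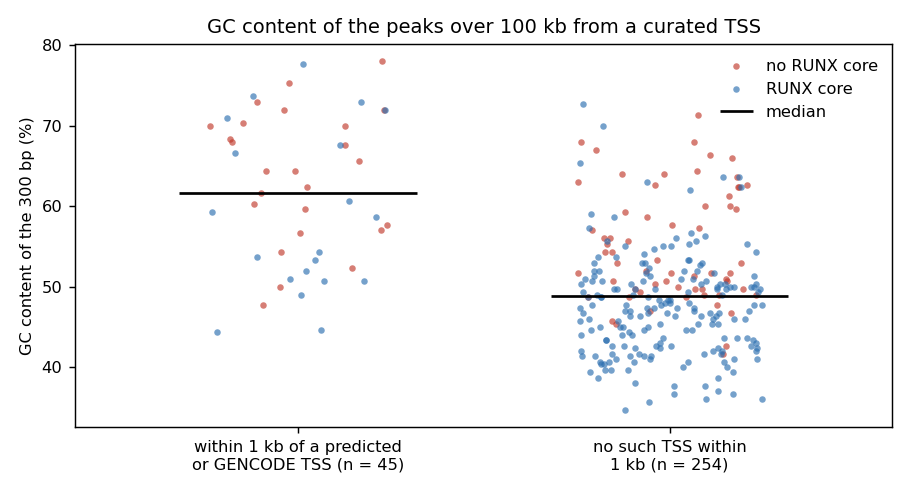
GC content of the 300 bp of each far peak, for the 45 peaks within 1 kb of a predicted RefSeq or GENCODE TSS and the 254 others, with a line at the median. Blue points hold a RUNX core and red points hold none, and the medians are 61.7% and 48.8%.

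The peaks were poor in repeats relative to the sequence beside them: the median share of bases soft-masked as repeats in the RefSeq sequence was 7% in the peaks and 15.3% in the left flanks, and 1 peak and 32 flanks were over 50% masked. The authors kept uniquely mapped reads, which leaves out repeats that cannot be mapped, and its part in this was not tested. In a search of the assembled chromosomes, 3 peaks had a near-identical sequence elsewhere (at least 90% identity over 66% of the length): that beside 1700030C10Rik (12 places, fold 4.63), that in a Ptprn2 intron (5 places, fold 17.6) and the Tmem121 peak of fold 17.6 (2 places).

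The 299 peaks had 260 distinct nearest genes, 177 of them protein-coding. These are 0.997% of all genes with a curated transcript, and 5.75% of the 4523 genes that could be nearest to such a peak, that is, whose TSS is nearest to some position over 100 kb away. Gene lists were counted against the second share. Of 58 axon guidance and cell adhesion genes that could be nearest, 13 were (22.4%), with 16 peaks. Gonad transcription factors gave 4 of 25 with 7 peaks, developmental zinc finger, homeobox and T-box factors 6 of 33, WNT pathway genes 3 of 18, AP-1, ETS, KLF, NFI and MAF factors 3 of 14, TGF-beta, activin and BMP pathway genes 2 of 18, growth factors and their receptors 1 of 23, and germ, blood and endothelial cell genes 1 of 10. Genes in long TSS-free stretches have more room for such a peak, so these counts are descriptions without a test.

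Among the axon guidance and adhesion genes, Robo2, a receptor for SLIT ligands, had a pair of peaks 692 bp apart in its intron 2, with folds of 21.3 and 17.6. Adgrl2, an adhesion G protein-coupled receptor, had a peak 271981 bp downstream of its TSS with a fold of 14.2. Pcdh9, a protocadherin, had an intronic peak of fold 10.5. Slit3, which encodes a ROBO ligand, had an intronic peak of fold 4.17 without a core. Some peaks of this list lay beside other annotated starts of the same gene. The Tenm3 peaks of fold 10.05 and 5.55 were 167 bp from a GENCODE and 201 bp from a predicted TSS of Tenm3. The Tenm2 peak of fold 5.55 was 182 bp from a predicted TSS of Tenm2. None of these Tenm3 and Tenm2 peaks held a core.

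Among the gonad transcription factors, Nr5a2, an orphan nuclear receptor of granulosa cells, had a peak on either side, of fold 9.72 at 120613 bp downstream of its TSS and of fold 6.35 at 119106 bp upstream. Nr2f2, a nuclear receptor of the gonadal interstitium, had peaks of fold 5.09 and 4.11 at 257787 and 209894 bp upstream, the second 156 bp from the GENCODE TSS of Gm44812. Irx5 had a peak of fold 5.29, and a second of fold 11.6 lay 138472 bp upstream of it, nearest to the noncoding gene Crnde.

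Fgf9, which encodes a secreted factor of the fetal testis, had downstream peaks of fold 11.7 and 9.46, 35999 bp apart, the second with 3 cores. This second peak was 245 bp from the TSS of a predicted noncoding transcript, Gm33321. Smad2, a transducer of TGF-beta and activin signals, had a peak of fold 17.9, and Smad3, of the same function, one of fold 4.63 with 2 cores. In the WNT list, the receptor gene Fzd8 had a peak of fold 15.7, the nuclear effector Lef1 one of fold 5.02 and the secreted inhibitor Sfrp1 one of fold 4.17.

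Of the developmental factors, Meis1 had a peak of fold 8.79, Isl1 one of 8.64 and Tshz2 one of 6.79, each with 1 core. The Meis1 peak was 58 bp from the GENCODE TSS of 8430419K02Rik. The Bach2 pair, 541 bp apart with folds of 14.4 and 4.07, was 178386 and 177845 bp from the curated TSS of Bach2 but 28 and 513 bp from a GENCODE one, with GC contents of 78.0% and 73.7%. Klf12 had a peak of fold 7.78 without a core, 76 bp from a predicted TSS of Klf12 itself and with a GC content of 72.0%, and Klf4 a pair of fold 6.88 and 5.55 at over 500 kb. Tfap2c, a germ cell factor, had a peak of fold 4.32 without a core.

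The cores of some of these peaks are shown with the bases around them, on the strand that reads the core as TGTGGT or TGCGGT and with the core in capitals, to show how the letter at the third position and the base after the core vary between loci of named genes. They are the Nr5a2 downstream peak (chr1:136832994-136833033, minus strand), the Nr5a2 upstream peak (chr1:137079550-137079589, minus strand), the Robo2 intron (chr16:75344396-75344435, minus strand), the Fgf9 peak of fold 9.46 (chr14:58300453-58300492, plus strand), the Itpr2 intron (chr6:146221534-146221573, plus strand) and the peak nearest to Dad1 (chr14:54138377-54138416, minus strand).
Nr5a2 downstream: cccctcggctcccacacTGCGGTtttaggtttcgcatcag
Nr5a2 upstream: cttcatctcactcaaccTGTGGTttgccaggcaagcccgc
Robo2 intron: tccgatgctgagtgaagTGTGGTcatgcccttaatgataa
Fgf9 downstream: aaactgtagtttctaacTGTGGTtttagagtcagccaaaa
Itpr2 intron: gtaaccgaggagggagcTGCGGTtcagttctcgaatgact
Dad1: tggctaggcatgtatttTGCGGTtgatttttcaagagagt

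The gene with the most peaks in its introns was Auts2, a developmental regulator, with 4 peaks over 79146 bp in curated introns of the gene. Their folds were 17.9, 8.89, 6.66 and 4.32, and their nearest curated TSS was that of the noncoding gene Gm29681. The peaks of fold 17.9, 8.89 and 6.66 were 379, 310 and 132 bp from GENCODE TSSs of Auts2 itself, and the first and second had their midpoints in a GENCODE exon of Auts2. In all, 41 peaks were in 19 groups of 2 or more within 50 kb of each other, and 16 peaks (5.35%) had another RUNX1 peak within 10 kb, compared with 9.94% of the peaks at 10 to 100 kb. The group with the highest fold lay in Vps13d, with folds of 22.8 and 6.29, the first in intron 67.

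A pair of antigen receptor loci held far peaks with high folds, named here after their values were seen. The pair at the immunoglobulin heavy chain locus, nearest to Tmem121 among curated genes and inside GENCODE exons of Ighg2c, had folds of 19.2 and 17.6. These peaks lay 153 and 875 bp from the annotated start of a GENCODE transcript of Ighg2c. The peak nearest to Dad1 was 1615 bp from the annotated GENCODE start of Trdj2, a joining segment of the T cell receptor delta locus. It had a fold of 16.04 with 2 cores. Whether transcription starts at these annotated positions was not tested. The samples were whole pooled ovaries, and the cells that gave these peaks were not tested.

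Also named after their values were seen are peaks whose nearest protein-coding gene is known in the gonad. A peak of fold 17.4 with 1 core was 666586 bp from Inhba, which encodes the activin and inhibin beta A subunit. Sox9, the factor of Sertoli cells, was the nearest protein-coding gene to a peak of fold 9.87 at 837621 bp upstream and to one of fold 5.55 at 238990 bp downstream. Gata6 was nearest to a peak of fold 7.4 at 187492 bp, without a core, and Pdgfra to one of fold 7.93 at 178043 bp with 3 cores.

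The nearest genes were also set beside the published lists of genes changed in newborn XX gonads that lack both Runx1 and Foxl2, which came from arrays at a later stage and were chosen on other samples. Of 172 genes on the list of lower expression that could be nearest, 15 were (8.72%), and of 87 on the list of higher expression, 7 were (8.05%), against 5.75% of all genes that could be. No test was made of these shares. Among the lower genes were Robo2, B3gat1 (fold 16.7), Adamts9 (15.7), Fat4 (15.4), Dab1 (10.7), Nr5a2 and Smad3. Ryr2, the intracellular calcium channel, had a peak of fold 9.63 with 2 cores in intron 12, and Itpr2, the inositol trisphosphate receptor, one of fold 4.38 in intron 44. Among the higher genes were Fgf9, Hsd17b3 (fold 8.64), an enzyme of testosterone synthesis, Klf12 with the peak beside its predicted TSS, Sulf1 (5.25) and Slit3.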

How the data were processed

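The peak list was measured by RUNX1 ChIP-seq in 2 ChIP and 2 input samples of E14.5 CD1 ovaries. By the authors' methods and the submitters' processing notes, quality-filtered single-end reads were mapped to mm10 with Bowtie 1.2 keeping unique hits, duplicates were removed with Picard 1.110, replicates were merged, and peaks were called with HOMER 4.9, reset to 300 bp and filtered on enrichment. The use of bedtools 2.24.0 is named without a role. The deposited file gives each peak's position and, in one field, the caller's fold (a ratio) and p-value. Of 10494 peaks, 4 lay on other sequences and were not used.

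Distances were taken from the peak midpoint to the TSSs of 45756 curated RefSeq transcripts (GRCm38, the mm10 assembly). Predicted RefSeq and GENCODE M21 transcripts were used for comparison. Sites were counted as consensus matches on both strands (pysam 0.24.0) in the peak and in windows 1 kb away. Tests were Fisher's exact and exact McNemar tests (SciPy 1.17.1), two-sided, at 0.05, the exact test over GC bins being stratified, with Woolf intervals for odds ratios and exact binomial ones for shares. The scan and tests were run first on simulated windows with planted sites. Copies were searched with BLAST 2.17.0. Named genes were the nearest genes of the 12 highest folds, of the 6 leading groups, of up to 3 per gene list and those the study names for RUNX1 and FOXL2 binding. Nr2f2, Irx5's second peak, Slit3, the antigen receptor genes, Inhba, Sox9, Gata6, Pdgfra, the copied sequences and the knockout-list genes other than Ryr2 and Itpr2 were named after values were seen. So were Tenm2 and Tenm3. A gene that the rule selects is not reported here. The peaks and lists were chosen with earlier results of these data known. Alternatives changed the TSS set, the distance limit, the flank, the site and the fold limit.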

Additional observations from a re-analysis of the deposited data

How the results depend on the processing

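The number of peaks kept was 299, and it was 93 with predicted RefSeq TSSs, 49 with GENCODE TSSs in place of curated RefSeq (an alternative chosen after the data were seen), 446 with protein-coding transcripts, 595 at a limit of 50 kb and 92 at 200 kb. The higher core share than in flanks held in 11 of 11 alternatives, by 20.1 to 57.8 percentage points against 46.5. The core share against peaks 10 to 100 kb away held in 10 of 12, and its odds ratio fell to 1.05 with TGCGGT alone and 1.12 within 5 GC bins. The 10 include a comparison with another group, the peaks within 1 kb (odds ratio 4.63). Of the 12, only the comparison within GC bins was matched for GC content. The higher share of high folds held in 4 of 7. Its odds ratio was 1.02 by the caller's p-value, 1.16 against peaks within 1 kb and 1.28 with the highest-fold peak per 50 kb run. The last of these selects on the fold itself. The rise of the core with fold was lost with TGTGGT alone (1.55). The core share in introns turned from 1.06 to 0.459 at a fold of at least 8 (p = 0.174, Fisher's exact test). Of the 9 other sites against peaks 10 to 100 kb away, 1 passed in the main comparison, 0 at a fold of at least 8, 0 over 200 kb (both with fewer peaks tested) and 8 against peaks within 1 kb. Of these 8, ETS was less frequent in the far peaks (0.669% against 5.82%) and the rest were more frequent. Median GC content was 49.7% in the far peaks and 68.0% within 1 kb, and this comparison was not matched for it. Causes of these changes were not tested, and this holds for the smaller numbers of peaks too. Leaving out peaks near predicted or GENCODE TSSs, the run filter and the GATA comparison within GC bins were added after the data were seen.

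No paired analysis was possible because peaks were called on merged replicates, so the peak list gives no value per sample, and leaving out a replicate could not be run on it for the same reason. Signal tracks were not analysed here. Depth per peak is unknown, and folds shared by many peaks limit any ranking.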
